A study of Mus musculus with 4 samples.

Results

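The genes described are 42 lysosomal genes, chosen by name as a fixed list, among 24497 mouse genes in a table of RNA abundance. They encode cathepsins and other lysosomal peptidases, glycosidases, lipid hydrolases and lipid carriers, membrane proteins, the transcription factors Tfeb and Tfe3, and subunits of the vacuolar proton pump. RNA came from the spleens of mice carrying a transplanted leukaemia made from bone marrow haematopoietic stem cells with NRAS, a growth-signalling oncogene, and AE9a, a truncated AML1-ETO fusion. The donor cells were Tet2 knockout or wild type (WT), and Tet2 encodes an enzyme that oxidises 5-methylcytosine in DNA. There were 2 libraries labelled Tet2 KO and 2 labelled WT. All cells of both groups carried NRAS and AE9a, had grown in SCF, IL-3 and IL-6 under G418 and puromycin, and were put into CD45.1 recipients 6 to 8 weeks old after 900 cGy of irradiation. Cells bearing CD45.2, the allele of the donors, were enriched from splenic cells. Whether a group's libraries stem from different mice or leukaemias, and which Tet2 allele was used, is not in the labels.

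Lysosomes break down proteins, sugar chains, lipids and nucleic acids taken up by the cell or delivered from within it, and their enzymes work at the acid pH kept by the proton pump. In phagocytes and antigen-presenting cells the same peptidases cut ingested proteins into the peptides loaded on MHC class II. Tfeb, Tfe3 and their relative Mitf bind a motif in the promoters of many lysosomal genes, known as the CLEAR element.

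All levels are TPM, a share of each library's transcripts corrected for transcript length. Changes are on the log2(TPM + 1) scale, with the standard error from limma after the ± sign, and a gene was called when its Benjamini-Hochberg adjusted p over 11919 tested genes was under 0.05. The WT libraries differed by 1.17 times the variance of read sampling, against 8.40 times between the libraries labelled Tet2 KO. Their mean was for this reason used as a single WT sample (n = 1), set against 2 libraries labelled Tet2 KO (n = 2), which assumes that WT would vary as the Tet2 KO-labelled libraries do.

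Several facts of the libraries moved with the labels. Estimated depth was 21.7 to 27.7 M reads (M, 1000000) per library. ERCC spike-in RNAs made up 2.95% and 3.19% of TPM in Tet2 KO-labelled libraries, against 4.66% and 4.62% in WT. Tet2 itself had 63.7 and 68.1 TPM in Tet2 KO-labelled libraries, against 43.5 and 43.7 TPM in WT, so the whole-gene value does not show the deletion, and every direction rests on the labels. Rn45s, the precursor of ribosomal RNA, had 1342 and 2984 TPM in Tet2 KO-labelled libraries, against 9227 and 8942 TPM in WT. Ptprc, which encodes CD45, was present at 413 and 396 TPM in Tet2 KO-labelled libraries, against 292 and 296 TPM in WT. Summed over 10 neutrophil markers, of which 10 rose and 0 fell (0 also at an unadjusted p under 0.05; 1 passed the filter through Tet2 KO-labelled libraries alone), the level was 96533 and 76089 TPM in Tet2 KO-labelled libraries, against 1537 and 1571 TPM in WT. Over 12 macrophage markers the sum was 181 and 199.6 TPM in Tet2 KO-labelled libraries, against 964 and 965 TPM in WT, with 1 of 10 tested markers called higher and 6 lower. Of that list, Vcam1 and Timd4 were under 1 TPM in all 4 libraries. Over 10 monocyte markers the sum was 3257 and 3285 TPM in Tet2 KO-labelled libraries, against 4227 and 4234 TPM in WT, with 2 called higher and 5 lower. Of 8 dendritic cell markers 6 were tested and all 6 were called lower (Siglech passed the filter through WT alone), from sums of 63.7 and 44.4 TPM in Tet2 KO-labelled libraries, against 432 and 436 TPM in WT; the defining markers Clec9a and Cd209a were at or under 0.53 TPM in every library. With TPM scaled to the ERCC total the falls of Itgax and Xcr1 were not called (log2 changes -0.26 and -0.46). Few B cell, T cell and erythroid markers were tested (2, 2 and 3, with 1 higher and 1 lower, 0 and 0, and 2 and 0; the B cell rise, Cd79a, and both erythroid rises, Hbb-bt and Car1, passed the filter through Tet2 KO-labelled libraries alone), and their sums were at most 47.5 TPM in any library. Of all tested genes 22.1% were called higher and 26.7% lower. In bulk RNA fewer cells of a type and less RNA per cell cannot be told apart. The part of these cell types in the lysosomal differences was not tested.

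Promoter sequence was available for 35 of the 42 genes, as RefSeq start sites of build GRCm38.p6 with 250 bases before and 50 after the start. The letters TCACGTG, the core of the CLEAR element, were found on either strand in 11 of these 35 genes (31.4%), against 7.13% of all tested genes with a promoter in the table. The shorter CACGTG, which every TCACGTG contains, was found in 12 of 35, or 34.3%, against 12.0%. The full CLEAR element, which adds G before and AC after the core, was found in 0 of the 35 genes, against 0.867% of tested genes. A core of the interferon-stimulated response element, GAAA followed by any 2 bases and GAAA again, was found in Ctss and Lamp1 (5.71%, against 3.91%). Genes with TCACGTG numbered 4 of 9 among those that rose (Ctsd, Gla, Atp6v0d1 and Atp6v1a), 4 of 12 among those that fell (Lgmn, Ctsa, Ifi30 and Glb1) and 3 of 14 among those not called. Promoters were available for 9 of the 14 genes that rose, 12 of the 14 that fell and all 14 not called. These shares therefore rest on unequal coverage. The stretches below hold the matched letters, in capitals, for 3 genes that rose and 3 that fell, 5′ to 3′ on the strand of the gene.
Ctsd (chr7:142387873-142387972, minus strand): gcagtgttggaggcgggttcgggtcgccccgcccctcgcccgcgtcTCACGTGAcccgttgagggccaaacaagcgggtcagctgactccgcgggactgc
Atp6v1a (chr16:44139338-44139437, minus strand): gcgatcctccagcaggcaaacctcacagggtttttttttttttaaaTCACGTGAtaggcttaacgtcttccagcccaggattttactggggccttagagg
Gla (chrX:134601156-134601255, minus strand): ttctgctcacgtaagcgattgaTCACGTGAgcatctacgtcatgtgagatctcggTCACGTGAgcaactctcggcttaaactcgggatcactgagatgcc
Lgmn (chr12:102439090-102439189, minus strand): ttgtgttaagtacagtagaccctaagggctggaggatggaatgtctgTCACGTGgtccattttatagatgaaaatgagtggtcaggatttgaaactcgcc
Ifi30 (chr8:70766807-70766906, minus strand): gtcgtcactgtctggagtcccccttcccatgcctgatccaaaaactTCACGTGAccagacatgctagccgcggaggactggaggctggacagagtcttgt
Ctss (chr3:95526716-95526815, plus strand): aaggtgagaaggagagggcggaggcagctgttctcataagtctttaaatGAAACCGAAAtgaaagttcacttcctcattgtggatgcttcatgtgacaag
The first 5 hold TCACGTG on 1 or both strands, and the Ctss stretch holds the interferon-response letters just before the start site. Genes of both directions thus carried the same core letters, and a match is a description, not evidence that a factor binds there.

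The comparison asked which lysosomal genes differ between leukaemic cells of Tet2 knockout and of WT origin. Of the 42 genes 14 rose, 14 fell and 14 were not called. The 28 called genes are 66.7% of the list, against 48.8% of all tested genes, and the shares of 33.3% in each direction compare with 22.1% higher and 26.7% lower. With a log2 change of 1 or more in size, 9 rose and 12 fell, against 14.2% and 16.0% of all tested genes. Directions split by role: 6 of 8 proton pump subunits rose and 0 fell (0 also at an unadjusted p under 0.05), whereas 6 of 8 papain-type cathepsins and legumain fell. The largest rises were those of Ctsk and Ctsd, and the largest falls those of Lipa, Ctsh and Ifi30. The median log2 change was 0.108 over the 42 genes and -0.12 over all tested genes. All 42 passed the filter on low values, and Atp6v0d2 passed through the libraries labelled Tet2 KO alone. The groups did not overlap in 36 of the 42, of which 19 stood above and 17 below WT, against 38.4% above and 48.7% below among all tested genes. Without the filter on low values, a setting that tests 18594 genes, 4 of the 28 calls remained (Psap, Ctsa, Npc2 and Atp6v1a). Scaled to the ERCC total, which moved the median of all tested genes to 0.43, 21 rose and 10 fell, against 41.5% and 12.5% of all tested genes.

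**Figure D1:**
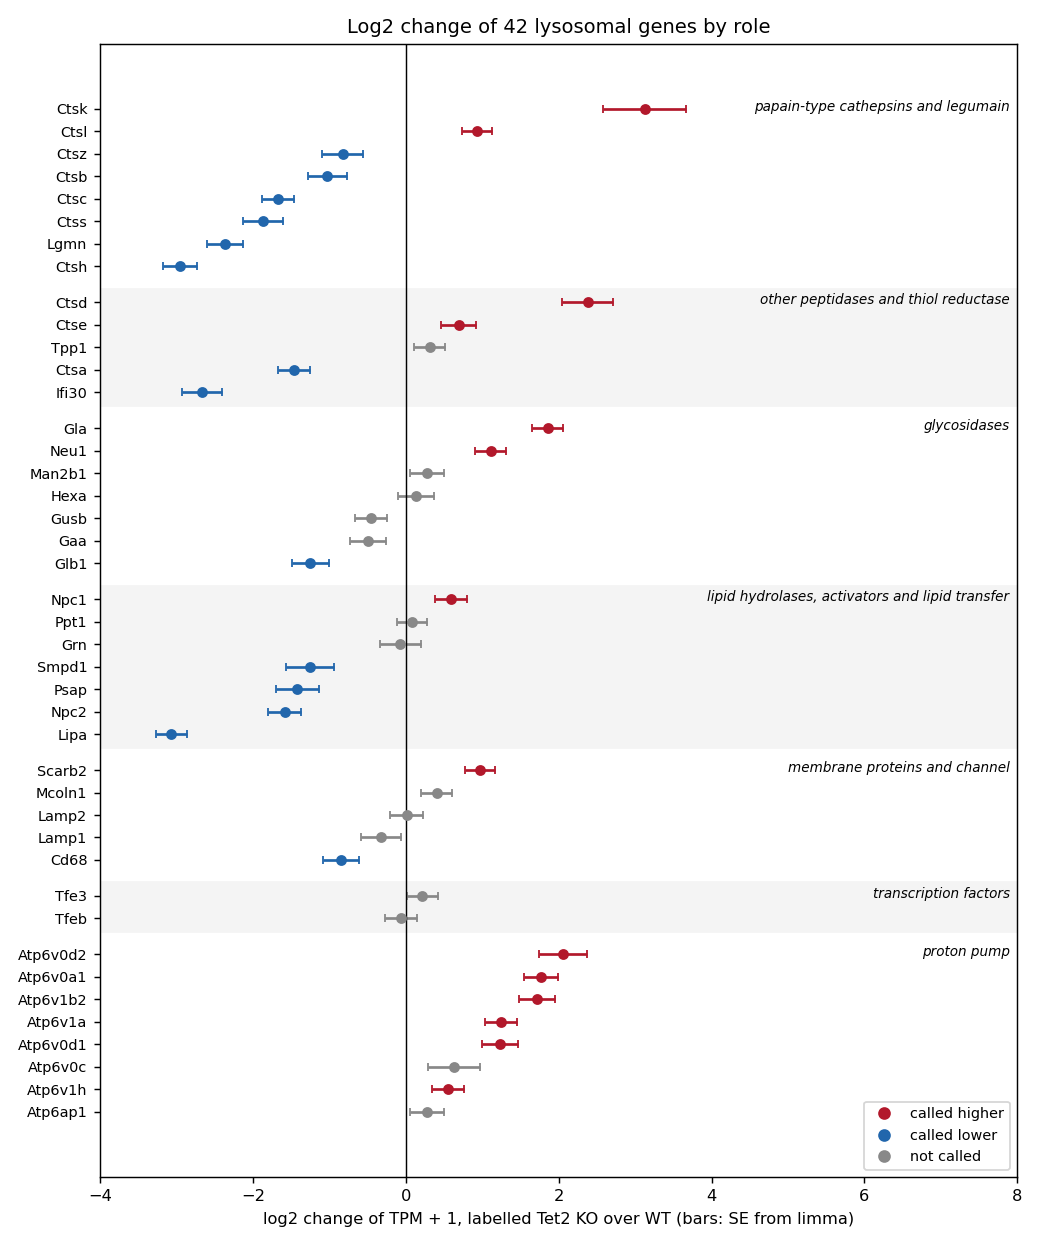
Log2 change of TPM + 1, libraries labelled Tet2 KO over WT, for each of the 42 genes grouped by role, with limma standard errors as bars and colours for genes called higher, called lower or not called (2 libraries labelled Tet2 KO, 1 averaged WT sample). All 8 proton pump subunits lie right of 0, while 6 of 8 papain-type cathepsins and legumain lie left of it.

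The papain-type cathepsins and legumain were together lower than in WT. Together the 8 genes had 2243 and 2289 TPM in Tet2 KO-labelled libraries, against 5661 and 5703 TPM in WT. Ctsh, an aminopeptidase (chr9:90054152-90076089, plus strand), had 62.9 and 82.6 TPM in Tet2 KO-labelled libraries, against 566 and 569 TPM in WT. Both libraries labelled Tet2 KO lay far below WT, at a log2 change of -2.96 ± 0.22 (limma adjusted p = 4.59e-08), and the mean was 7.80-fold lower. Lgmn, an asparagine-specific peptidase that also matures other cathepsins, had 134 and 168 TPM in Tet2 KO-labelled libraries, against 768 and 788 TPM in WT. That was a log2 change of -2.37 ± 0.23 (limma adjusted p = 5.62e-07). Ctss, which trims the invariant chain during MHC class II loading (chr3:95526786-95556403, plus strand), had 334 and 419.7 TPM in Tet2 KO-labelled libraries, against 1369 and 1373 TPM in WT. It fell with a log2 change of -1.87 ± 0.26 (limma adjusted p = 2.31e-05), and its promoter stretch is among those shown above. Ctsc, the dipeptidyl peptidase that activates the serine proteases of neutrophil granules, had 64.1 and 80.9 TPM in Tet2 KO-labelled libraries, against 229.5 and 233 TPM in WT. It fell with a log2 change of -1.67 ± 0.21 (limma adjusted p = 8.28e-06), in the same libraries in which 10 of 10 neutrophil markers rose. Ctsb, an abundant endopeptidase and carboxypeptidase, had 551 and 535 TPM in Tet2 KO-labelled libraries, against 1106 and 1108 TPM in WT, at a log2 change of -1.03 ± 0.26 (limma adjusted p = 0.00373). Some of its exons (774 of 4743 bases) overlap those of Fdft1 on the opposite strand, and no source used here says whether counting took account of strand. The carboxypeptidase gene Ctsz, at 905 and 842 TPM in those labelled Tet2 KO, against 1547 and 1553 TPM in WT, fell by less, with a log2 change of -0.83 (limma adjusted p = 0.02). The falls of Ctsb and Ctsz did not pass with ERCC scaling, and that of Ctsz also not with quantile normalization or median centring.

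Ctsk and Ctsl moved the other way. Ctsk, a collagen-degrading peptidase best known from osteoclasts (chr3:95499256-95509362, plus strand), had 44.6 and 19.6 TPM in Tet2 KO-labelled libraries, against 1.95 and 3.09 TPM in WT. The libraries labelled Tet2 KO differed from each other by more than those of any other of the 42 genes, yet both stood above WT, at a log2 change of 3.12 ± 0.54 (limma adjusted p = 0.0103). Its mean was 12.7 times that of WT. Ctsl, an endopeptidase of many tissues, had 147 and 142 TPM in Tet2 KO-labelled libraries, against 74.9 and 75.6 TPM in WT. Its groups were well apart, at a log2 change of 0.93 ± 0.20 (limma adjusted p = 0.00114). Within a library, where scaling has no part, the ratio of Ctsl to Ctsh was 2.34 and 1.72 in Tet2 KO-labelled libraries, against 0.132 and 0.133 in WT. Of 8 osteoclast markers 6 were tested, of which 1 was called higher, 4 lower and 1, Mmp9, not at all. Mmp9 had 164 and 63.6 TPM in Tet2 KO-labelled libraries, against 1.08 and 1.13 TPM in WT (log2 change 5.62, limma adjusted p = 0.0905), with replicate 1 above replicate 2 as for Ctsk. Acp5 had 36.2 and 18.1 TPM in Tet2 KO-labelled libraries, against 4.69 and 4.93 TPM in WT, higher in the same order, whereas Ocstamp, needed when osteoclast precursors fuse, had 3.91 and 4.11 TPM in those labelled Tet2 KO, against 139 and 141 TPM in WT, and Calcr and Oscar were at or under 0.28 TPM throughout. Between the Tet2 KO-labelled libraries replicate 1 also stood above replicate 2 for 29 of the 42 genes. The summed neutrophil markers had that order too, at 96533 and 76089 TPM. The part of osteoclast-type cells or neutrophils in the Ctsk values was not tested.

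**Figure D2:**
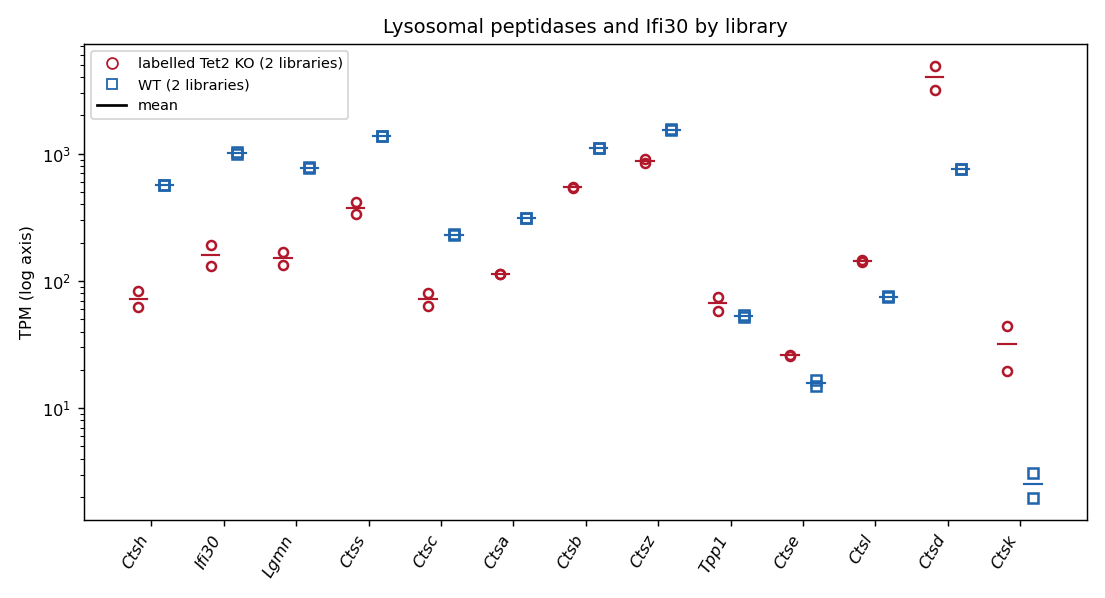
TPM on a log axis for the 12 lysosomal peptidases and Ifi30, with 2 libraries labelled Tet2 KO (circles) and 2 WT libraries (squares) as single points and a line at each mean, ordered by log2 change. Ctsh, Ifi30 and Lgmn show the widest gaps below WT, and Ctsd and Ctsk the widest above it.

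The aspartic peptidase Ctsd was the most abundant of the 42 genes where Tet2 KO was the label, and ranked 8 of 42 in both WT libraries. It had 4927 and 3165 TPM in Tet2 KO-labelled libraries, against 764 and 752 TPM in WT, at a log2 change of 2.38 ± 0.34 (limma adjusted p = 3.92e-05) (chr7:142375911-142388038, minus strand). Both libraries labelled Tet2 KO were above WT though they differed from each other, with a mean of 4046 ± 1246 TPM (SD, n = 2) against 758 TPM. Among all genes it ranked 18 and 22 in Tet2 KO-labelled libraries and 183 and 186 in WT. The ratio of Ctsd to Ctss was 14.8 and 7.54 in Tet2 KO-labelled libraries, against 0.558 and 0.548 in WT. Ctse, an endosomal aspartic peptidase, rose less, with 25.9 and 26.4 TPM in Tet2 KO-labelled libraries, against 16.6 and 14.9 TPM in WT and a log2 change of 0.69 (limma adjusted p = 0.0204). Ifi30, the interferon-induced thiol reductase that opens disulphide bonds of antigens (chr8:70762774-70766663, minus strand), had 132 and 191 TPM in Tet2 KO-labelled libraries, against 1025 and 1002 TPM in WT. It fell with a log2 change of -2.67 ± 0.26 (limma adjusted p = 1.17e-06), and its promoter stretch holds the same core letters as that of Ctsd. Ctsa, a serine carboxypeptidase that also stabilises other enzymes, had 114 and 112 TPM in Tet2 KO-labelled libraries, against 313 and 314 TPM in WT. Its groups were far apart, at a log2 change of -1.46 ± 0.21 (limma adjusted p = 2.85e-05); its exons overlap those of Pltp (495 bases) and Neurl2 (324 bases) on the opposite strand. Tpp1, a tripeptidyl peptidase, was not called, with 75.0 and 58.0 TPM in Tet2 KO-labelled libraries, against 53.6 and 52.3 TPM in WT and a log2 change of 0.31 ± 0.20.

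Glycosidases, which strip sugars from glycoproteins and glycolipids, divided: 2 of 7 rose, 1 fell and 4 were not called, shares of 28.6% and 14.3% against 22.1% and 26.7% of all tested genes. Gla, the alpha-galactosidase A gene (chrX:134588149-134601125, minus strand), had 173 and 181 TPM in Tet2 KO-labelled libraries, against 47.9 and 48.6 TPM in WT. It rose with a log2 change of 1.85 ± 0.20 (limma adjusted p = 1.42e-06), and the libraries of each group lay close together. Neu1, a sialidase, had 53.3 and 45.6 TPM in Tet2 KO-labelled libraries, against 22.1 and 22.6 TPM in WT, at a log2 change of 1.11 ± 0.20 (limma adjusted p = 0.000318). Glb1, the beta-galactosidase gene, went the other way with 13.4 and 13.1 TPM in Tet2 KO-labelled libraries, against 33.4 and 32.2 TPM in WT. It fell with a log2 change of -1.25 ± 0.24 (limma adjusted p = 0.000565); Tmppe, which shares 165 exon bases with it on the same strand, had 23.3 and 22.7 TPM in Tet2 KO-labelled libraries, against 8.80 and 8.77 TPM in WT. Neu1, Glb1 and Ctsa proteins form a complex in the lysosome, and of their genes the first rose while the other two fell. The ratio of Neu1 to Ctsa was 0.468 and 0.406 in Tet2 KO-labelled libraries, against 0.0707 and 0.0719 in WT, and that of Neu1 to Glb1 was 3.99 and 3.48 in Tet2 KO-labelled libraries, against 0.662 and 0.701 in WT. Hexa, a subunit of beta-hexosaminidase, overlapped between groups, with 218 and 164 TPM in Tet2 KO-labelled libraries, against 174 and 171 TPM in WT. Man2b1, an alpha-mannosidase, stood at 236 and 206 TPM in those labelled Tet2 KO, against 184 and 179 TPM in WT, without a call. Gusb, the beta-glucuronidase gene, with 114 and 131 TPM labelled Tet2 KO and 169 and 168 TPM in WT, and Gaa, which degrades glycogen, with 17.3 and 17.3 and 24.6 and 25.0 TPM in the same order, were below WT without a call. Their log2 changes of -0.46 and -0.50 turned to 0.13 and 0.074 with ERCC scaling.

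Of 7 genes of lipid breakdown and cholesterol export 4 fell and 1 rose. These are 57.1% and 14.3%, against 26.7% lower and 22.1% higher among all tested genes. Lipa, the acid lipase that splits cholesteryl esters and triglycerides (chr19:34492318-34527474, minus strand), had 29.5 and 37.2 TPM in Tet2 KO-labelled libraries, against 280.1 and 289.9 TPM in WT. It showed the largest fall of the 42, 8.55-fold, at a log2 change of -3.07 ± 0.20 (limma adjusted p = 6.64e-09). Npc2, which hands cholesterol to Npc1, had 136 and 138 TPM in Tet2 KO-labelled libraries, against 409 and 415 TPM in WT, at a log2 change of -1.58 ± 0.21 (limma adjusted p = 1.68e-05). Npc1, the membrane transporter that receives it, rose slightly instead, with 196 and 193 TPM in Tet2 KO-labelled libraries, against 128 and 129.5 TPM in WT and a log2 change of 0.59 (limma adjusted p = 0.029), which was not a call in plain limma. Psap, the precursor of the saposins that help hydrolases reach their lipids, had 1075 and 1089.7 TPM in Tet2 KO-labelled libraries, against 2901 and 2885 TPM in WT. It was the most abundant of the 42 genes in WT and fell with a log2 change of -1.42 ± 0.29 (limma adjusted p = 0.00071). Smpd1, acid sphingomyelinase, was low throughout, at 4.01 and 2.92 TPM in Tet2 KO-labelled libraries, against 10.3 and 8.80 TPM in WT. It fell with a log2 change of -1.25 ± 0.32 (limma adjusted p = 0.00392); ERCC scaling and quantile normalization each ended this call. Ppt1, which removes palmitate from proteins, had 115 and 105 TPM in Tet2 KO-labelled libraries, against 103 and 105 TPM in WT, and Grn, the progranulin gene, had 718 and 554 TPM in those labelled Tet2 KO, against 660.1 and 667 TPM in WT. Both overlapped between groups, and the log2 change of Grn was -0.074, or 0.52 with ERCC scaling. Macrophage markers, whose part in these values was not tested, went both ways. Adgre1, Axl, C1qa, C1qb, C1qc and Cd163 were called lower, and C1qb had 42.6 and 46.5 TPM in Tet2 KO-labelled libraries, against 367 and 379.9 TPM in WT. Mertk was called higher, with 2.78 and 3.36 TPM in Tet2 KO-labelled libraries, against 1.37 and 1.32 TPM in WT. Without a call, Slc40a1 and Spic lay above WT and Mrc1 below it. The fall of Adgre1 did not pass with ERCC scaling (log2 change -0.080), quantile normalization or median centring, nor in plain limma.

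Of 5 lysosomal membrane proteins on the list, Scarb2 rose, Cd68 fell, and Lamp1, Lamp2 and Mcoln1 were not called. These shares of 20% in each direction lie near the 22.1% higher and 26.7% lower of all tested genes. Lamp1 had 711 and 674 TPM in Tet2 KO-labelled libraries, against 866 and 868 TPM in WT, and Lamp2 had 237 and 246 TPM in those labelled Tet2 KO, against 245 and 235 TPM in WT, both without a call; the log2 change of Lamp1 was -0.32 ± 0.26, or 0.27 with ERCC scaling, and that of Lamp2 was 0.01 ± 0.22. Cd68, a glycoprotein abundant in macrophages, fell with 285 and 269 TPM in Tet2 KO-labelled libraries, against 505 and 493 TPM in WT (log2 change -0.85, limma adjusted p = 0.00677), a call lost with ERCC scaling. Scarb2, an integral protein of the lysosomal membrane, rose with 127 and 115 TPM in Tet2 KO-labelled libraries, against 61.6 and 60.4 TPM in WT (log2 change 0.97, limma adjusted p = 0.000717). Mcoln1, the lysosomal calcium channel, had 39.5 and 38.8 TPM in Tet2 KO-labelled libraries, against 28.0 and 30.6 TPM in WT. The groups did not overlap, but a log2 change of 0.41 ± 0.20 (limma adjusted p = 0.108) was not a call; with ERCC scaling it passed at 0.98 (limma adjusted p = 0.00453).

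Among the 8 pump genes on the list, which belong to a membrane part that carries protons and a head that splits ATP, 6 rose. The 8 summed to 1713 and 1521 TPM in Tet2 KO-labelled libraries, against 761 and 740.5 TPM in WT. Atp6v1b2, a subunit of the ATP-splitting head (chr8:69088646-69113711, plus strand), had 514 and 493 TPM in Tet2 KO-labelled libraries, against 155 and 150.2 TPM in WT. It rose with a log2 change of 1.72 ± 0.23 (limma adjusted p = 1.68e-05), and the libraries of each group were close together. Atp6v1a, the catalytic subunit, had 215 and 218 TPM in Tet2 KO-labelled libraries, against 89.2 and 92.5 TPM in WT, at a log2 change of 1.24 ± 0.21 (limma adjusted p = 0.000141). Atp6v1h, which regulates the head, rose less, with 142 and 119 TPM in Tet2 KO-labelled libraries, against 91.3 and 85.6 TPM in WT and a log2 change of 0.55 (limma adjusted p = 0.0369). That call was lost without WT replicate 2, with quantile normalization or median centring, and in plain limma, without its trend and robust options. In the membrane part, Atp6v0a1, the a1 subunit (chr11:101009452-101063719, plus strand), had 133 and 94.1 TPM in Tet2 KO-labelled libraries, against 32.7 and 31.5 TPM in WT, at a log2 change of 1.77 ± 0.22 (limma adjusted p = 3.32e-05). Of the 2 forms of the d subunit, Atp6v0d1 is general and Atp6v0d2 is known from osteoclasts and macrophages. Atp6v0d1 had 403 and 317 TPM in Tet2 KO-labelled libraries, against 153 and 149.8 TPM in WT, at a log2 change of 1.23 ± 0.24 (limma adjusted p = 0.000457). Atp6v0d2 had 5.74 and 3.78 TPM in Tet2 KO-labelled libraries, against 0.37 and 0.36 TPM in WT, at a log2 change of 2.06 ± 0.31 (limma adjusted p = 5.39e-05). It passed the filter on low values through the libraries labelled Tet2 KO alone. Both forms rose, and Atp6v0d1 exceeded Atp6v0d2 by 70.2 and 83.8 times in Tet2 KO-labelled libraries and by 413 and 416 times in WT. Atp6ap1, an accessory subunit, had 287 and 269 TPM in Tet2 KO-labelled libraries, against 231 and 227 TPM in WT, without a call. Atp6v0c, the proton-carrying ring, had 13.3 and 7.63 TPM in Tet2 KO-labelled libraries, against 9.01 and 3.33 TPM in WT. Its groups overlapped, its values were uneven even between the WT libraries, and they are uncertain because the genome holds processed copies of it (Atp6v0c-ps1 and Atp6v0c-ps2).

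**Figure D3:**
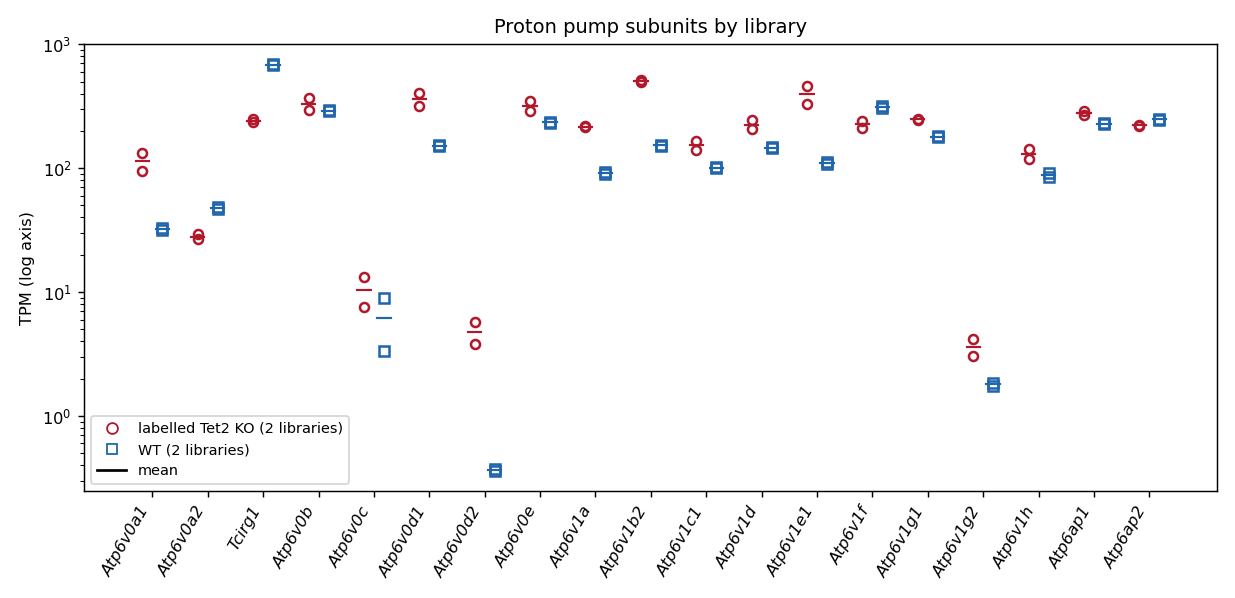
TPM on a log axis for the 19 tested proton pump subunits, with 2 libraries labelled Tet2 KO (circles) and 2 WT libraries (squares) as single points and a line at each mean. Atp6v0a1, Atp6v0d1, Atp6v0d2, Atp6v1a, Atp6v1b2 and Atp6v1e1 stand well above WT, and Tcirg1 stands below it.

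The pump subunits outside the list did not move as a block. Of 11 tested out of 14, 3 rose and 2 fell. In all 9 of 19 tested pump subunits rose and 2 fell, against 22.1% and 26.7% of all tested genes. Atp6v0d2, counted among the 9, passed the filter through the libraries labelled Tet2 KO alone. Atp6v1e1, the stalk subunit of the head, had 464 and 332 TPM in Tet2 KO-labelled libraries, against 112 and 108 TPM in WT, at a log2 change of 1.83 ± 0.25 (limma adjusted p = 2.80e-05). Atp6v1d and Atp6v1c1 also rose, with log2 changes of 0.61 and 0.60 (limma adjusted p = 0.0318 and 0.0272). Neither was called in plain limma or with quantile normalization, nor Atp6v1d with median centring. The a subunits, alternative forms of the same part, went in opposite directions. Tcirg1, the a3 subunit known from osteoclasts and phagocytes, had 249.7 and 235 TPM in Tet2 KO-labelled libraries, against 679 and 689 TPM in WT, at a log2 change of -1.49 ± 0.23 (limma adjusted p = 6.95e-05). Atp6v0a2, the a2 subunit, fell as well, with 26.6 and 29.5 TPM in Tet2 KO-labelled libraries, against 46.7 and 49.0 TPM in WT and a log2 change of -0.75 (limma adjusted p = 0.00695), which with ERCC scaling was -0.17 and not a call. Of the summed TPM of the 3 a subunits, Atp6v0a1 made up 32.5% and 26.2% in Tet2 KO-labelled libraries, against 4.31% and 4.09% in WT. Tcirg1 remained the most abundant a subunit in all 4 libraries, at 61.0% and 65.5% in Tet2 KO-labelled libraries, against 89.5% and 89.5% in WT.

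The factors Tfeb and Tfe3 were not called. Tfeb had 44.6 and 35.2 TPM in Tet2 KO-labelled libraries, against 39.5 and 43.2 TPM in WT, with a log2 change of -0.06 ± 0.21 (limma adjusted p = 0.839). Its groups overlapped. Tfe3 had 116 and 113 TPM in Tet2 KO-labelled libraries, against 97.5 and 98.9 TPM in WT, just above WT at a log2 change of 0.22 ± 0.20 (limma adjusted p = 0.379). With ERCC scaling Tfe3 passed at 0.81 (limma adjusted p = 0.014), while Tfeb at 0.52 did not. Their relatives, from the list of 19 regulators, moved far more and in opposite directions. Mitf had 7.21 and 6.30 TPM in Tet2 KO-labelled libraries, against 38.3 and 38.9 TPM in WT, at a log2 change of -2.35 ± 0.27 (limma adjusted p = 3.22e-06). Tfec had 29.7 and 42.8 TPM in Tet2 KO-labelled libraries, against 1.38 and 2.61 TPM in WT, at a log2 change of 3.61 ± 0.28 (limma adjusted p = 7.78e-08). The pair thus exchanged order, with Tfec above Mitf in Tet2 KO-labelled libraries and below it in WT. Of the 18 tested regulators 8 rose and 4 fell, or 44.4% and 22.2%, against 22.1% and 26.7% of all tested genes. Flcn, Fnip1 and Fnip2 form complexes that act on Rag GTPases at the lysosome surface and govern the entry of Tfeb into the nucleus. All 3 rose: Flcn had 141 and 134 TPM in Tet2 KO-labelled libraries, against 24.0 and 24.2 TPM in WT, at a log2 change of 2.46 ± 0.19 (limma adjusted p = 3.35e-08). Fnip1 and Fnip2 rose by log2 changes of 2.24 and 2.23 (limma adjusted p = 1.39e-07 and 3.78e-07); Fnip1 had 125 and 104 TPM in Tet2 KO-labelled libraries, against 23.1 and 23.7 TPM in WT, and Fnip2 had 318 and 301 TPM in those labelled Tet2 KO, against 64.1 and 65.8 TPM in WT. The Rag GTPase gene Rragc had 239.7 and 195 TPM in Tet2 KO-labelled libraries, against 79.5 and 79.0 TPM in WT. Rragb was lower, with 0.16 and 0.15 TPM in Tet2 KO-labelled libraries, against 3.08 and 2.56 TPM in WT, and passed the filter through WT alone. Rptor and Lamtor5 were the other falls, with log2 changes of -0.53 and -0.67, neither of which passed with ERCC scaling (0.055 and -0.079); Rptor also did not pass in plain limma or with quantile normalization or median centring.

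Receptors, adaptors and tagging enzymes that route new hydrolases to the lysosome numbered 9, of which 3 rose and 3 fell, or 33.3% each, not far from the 22.1% and 26.7% of all tested genes. Sort1, which encodes sortilin, a carrier of prosaposin and other cargo, had 49.6 and 45.8 TPM in Tet2 KO-labelled libraries, against 1.03 and 0.96 TPM in WT. It rose with a log2 change of 4.61 ± 0.25 (limma adjusted p = 7.37e-10), more than any other gene of the lysosomal lists. Igf2r, the large mannose 6-phosphate receptor, had 15.9 and 9.63 TPM in Tet2 KO-labelled libraries, against 0.22 and 0.32 TPM in WT, at a log2 change of 3.40 ± 0.34 (limma adjusted p = 1.45e-06), and passed the filter through the libraries labelled Tet2 KO alone. M6pr, the small mannose 6-phosphate receptor, had 267 and 251 TPM in Tet2 KO-labelled libraries, against 574 and 579 TPM in WT, at a log2 change of -1.15 ± 0.23 (limma adjusted p = 0.000722). Gnptab, the enzyme that starts the mannose 6-phosphate tag, fell too, with 75.4 and 89.7 TPM in Tet2 KO-labelled libraries, against 187 and 189 TPM in WT and a log2 change of -1.18 (limma adjusted p = 0.000182). M6pr stayed above Sort1 in every library, but the ratio of Sort1 to M6pr was 0.186 and 0.182 in Tet2 KO-labelled libraries, against 0.00179 and 0.00166 in WT. Gga2, an adaptor for these receptors, rose by 0.91 (limma adjusted p = 0.0119), and Nagpa, which finishes the tag, fell by 0.73 on the log2 scale (limma adjusted p = 0.0155). The falls of M6pr and Nagpa did not pass with ERCC scaling.

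**Figure D4:**
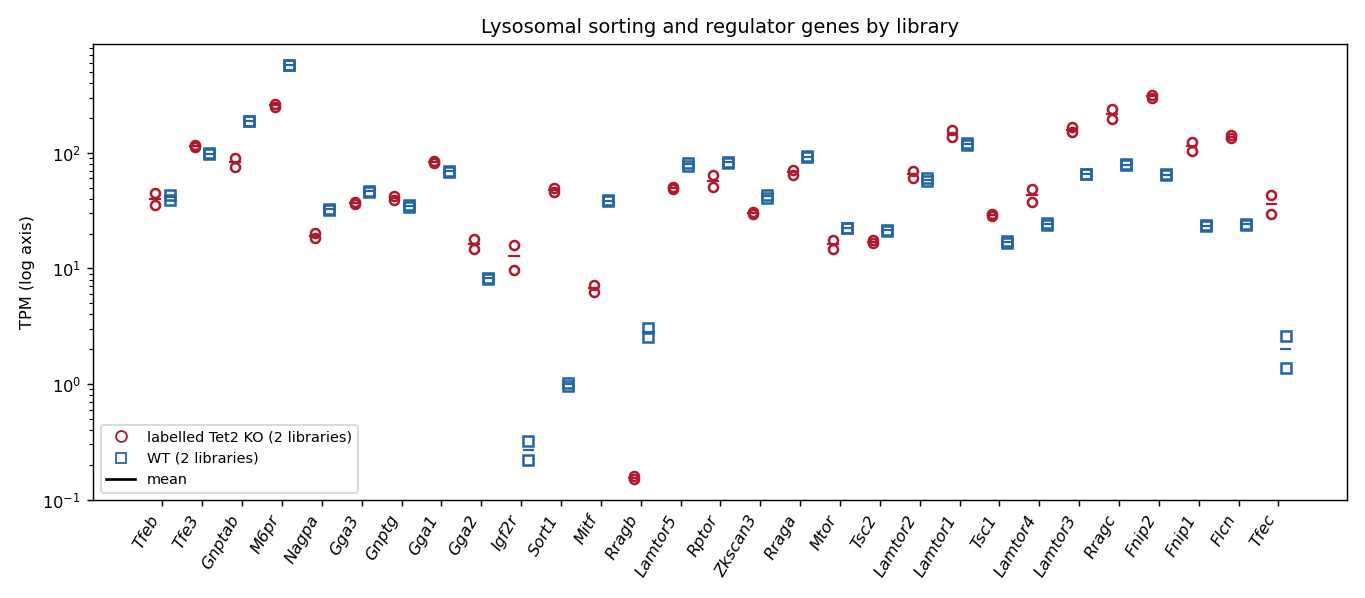
TPM on a log axis for Tfeb, Tfe3, the 9 tested sorting genes and the 18 tested regulators, with 2 libraries labelled Tet2 KO (circles) and 2 WT libraries (squares) as single points and a line at each mean. Tfeb and Tfe3 lie at about WT level, Sort1, Igf2r and Tfec stand far above WT, and Mitf and Rragb below it.

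Among the remaining lysosomal genes, 8 of 27 tested hydrolases and activators outside the list rose and 8 fell, or 29.6% each, near the 22.1% and 26.7% of all tested genes. The largest rises were Galc, a galactosylceramidase, at 2.53, the acid phosphatase gene Acp5 at 2.20 and Galns, a sulphatase, at 1.44 on the log2 scale. Galc had 18.5 and 15.2 TPM in Tet2 KO-labelled libraries, against 2.64 and 1.54 TPM in WT, and Galns had 72.8 and 63.3 TPM in those labelled Tet2 KO, against 25.0 and 23.9 TPM in WT. The largest falls were Ids, a sulphatase, at -1.69, Naglu, a glucosaminidase, at -1.62 and Ctso, a further papain-type cathepsin, at -1.55. Naglu had 6.06 and 3.75 TPM in Tet2 KO-labelled libraries, against 17.7 and 15.9 TPM in WT, and was not called with quantile normalization. Of 19 tested membrane proteins and transporters outside the list 7 rose (36.8%, against 22.1% of all tested genes) and 5 fell (26.3%, against 26.7%). Cd63, a tetraspanin of lysosomes and granules, had 593 and 549 TPM in Tet2 KO-labelled libraries, against 187 and 184 TPM in WT, at a log2 change of 1.62 ± 0.24 (limma adjusted p = 4.03e-05), and Cln3 rose by 1.52 on the log2 scale. The nucleoside transporter Slc29a3 had 32.9 and 38.6 TPM in Tet2 KO-labelled libraries, against 143 and 145 TPM in WT, at a log2 change of -1.98 ± 0.19 (limma adjusted p = 4.70e-07), and the cation channel Tpcn1 and the transmembrane gene Laptm4b had log2 changes of -1.49 and -1.08. Laptm4b passed the filter through WT alone, and ERCC scaling ended its call (-0.72, limma adjusted p = 0.0509). Of 4 listed cystatins, which block papain-type cathepsins, 3 were tested. Of these 2 fell and 0 rose (0 also at an unadjusted p under 0.05), too few genes to set against the share of all tested genes. The list was Cst3, Cst6, Cst7 and Cstb, and other cystatins, such as the stefin A genes, were not on it. Cst3 had 404 and 478 TPM in Tet2 KO-labelled libraries, against 1371 and 1394 TPM in WT, at a log2 change of -1.65 ± 0.26 (limma adjusted p = 7.61e-05), and Cst7 had a log2 change of -1.81 (limma adjusted p = 1.05e-05). Cst3 and its target Ctss were lower together, and their ratio was 1.21 and 1.14 in Tet2 KO-labelled libraries, against 1.00 and 1.01 in WT. The third, Cstb, had 1296 and 1399 TPM in Tet2 KO-labelled libraries, against 949 and 950.0 TPM in WT and was not called; with ERCC scaling its log2 change was 1.10 (limma adjusted p = 0.0116).

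Scaling decided several of the smaller differences, as the plot of spike-in scaling shows. On the ERCC scale all 42 log2 changes moved up, 24 of the 28 calls kept their direction and call, and the calls of Ctsb, Ctsz, Cd68 and Smpd1 were lost. All 8 proton pump genes of the list were then called higher, and 4 of the 8 papain-type cathepsins and legumain lower, against 41.5% higher and 12.5% lower among all tested genes; this scaling moves the median of all tested genes up as well.

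**Figure D5:**
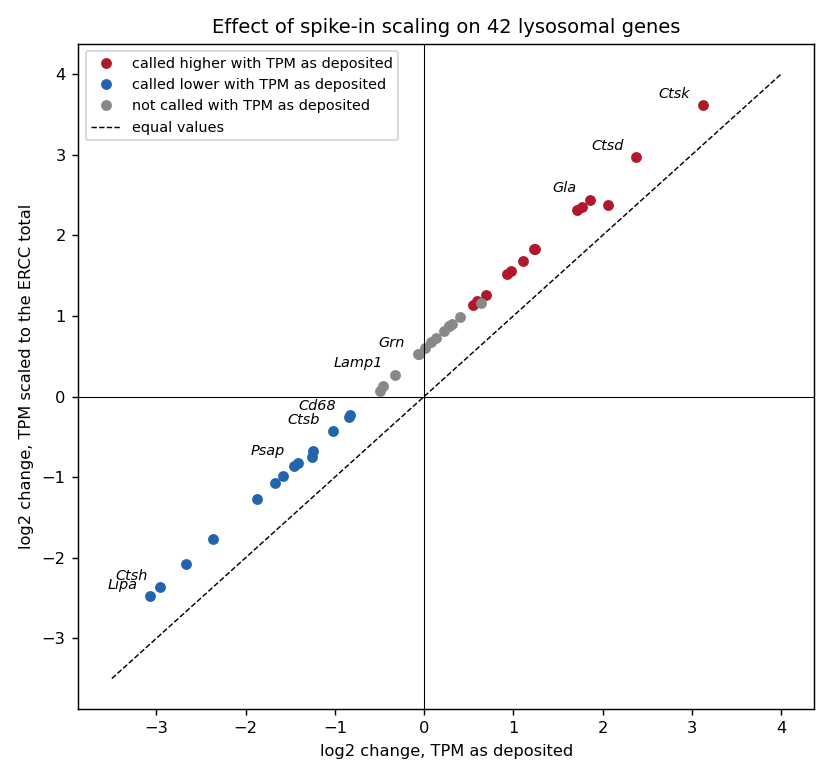
Log2 change with TPM scaled to the ERCC total against log2 change with TPM as deposited, for the 42 genes (1 point a gene, colours as called with TPM as deposited, dashed line at equal values). All points lie above the line, and the 5 uncalled genes below 0 with TPM as deposited lie above 0 after scaling.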

How the data were processed

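RNA-seq of 2 libraries labelled Tet2 KO and 2 labelled WT was deposited by the authors as TPM, each library summing to about 1000000 over 24589 rows; per the submitters' processing notes STAR, RSEM and mm10 were used, with no version or annotation given. The 92 ERCC rows were left out, which left 24497 gene rows. Genes with at least 1 TPM in at least 2 libraries (11919) were tested on log2(TPM + 1), with a pseudocount of 1, by limma 3.58.1 in R 4.3.3 with trend and robust estimation, two-sided, with Benjamini-Hochberg adjustment and a threshold of 0.05. This scale understates changes of low genes. TPM does not state depth: it was estimated from the step of low values of single-transcript genes and is approximate. Over 4638 such genes 29 differed between the WT libraries by more than 5 SD of read sampling, against 985 of 4843 between those labelled Tet2 KO. WT was therefore averaged, which leaves 1 residual degree of freedom. In simulated data too many calls were false (10.4%) where genes of like abundance varied unequally, against 5.19% where they varied nearly alike. False calls were not split by how much a gene varied, and far fewer genes were changed in the simulation than were called here. Because WT was averaged, p-values reflect the variation between the 2 libraries labelled Tet2 KO alone. Whether these stem from different mice is not in the labels. The 42 genes, the lists and the averaging of WT were chosen with earlier results of these data known. Full statistics are given for called genes with a log2 change of at least 1 in size, Tfeb, Tfe3, Mcoln1 and the d subunits, and up to 3 genes in each direction are named from each other list; further genes were named after their values were seen, and some results are not reported here. Coordinates are from GENCODE M21 (the same build as mm10) and count from 1. Promoters are from RefSeq. Alternatives were all 4 libraries as samples with or without a replicate block, pseudocount 0.1, no filter or 5 TPM, plain limma, ERCC, quantile and median scaling, and each library left out.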

Additional observations from a re-analysis of the deposited data

How the results depend on the processing

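Of the 28 called members of the list 22 kept direction and call under every alternative other than no filter on low values; the 6 others were Ctsb, Ctsz, Cd68, Smpd1, Npc1 and Atp6v1h, under the settings named above, and Atp6v0d2 was not tested at a filter of 5 TPM. Without the filter 1 was called higher and 3 lower, beside 123 and 295 of all genes and, of the other lysosomal genes, 0 and 1 by limma (18 and 25 at an unadjusted p under 0.05); that setting tests more genes, and the cause was not tested further. With ERCC scaling 4942 and 1492 of all genes and 45 and 12 of the other lysosomal genes were called, against 29 and 24 with TPM as deposited. Leaving out each library in turn gave 13 to 22 of the 42 higher and 14 to 19 lower, 2651 to 4321 and 3192 to 5674 of all genes, and 29 to 42 and 23 to 40 of the other lysosomal genes; the high ends came without a library labelled Tet2 KO, where both WT libraries were samples and the lone other library is assumed to vary as they do (22 higher without Tet2 KO replicate 2). With all 4 libraries as samples 17 rose and 17 fell, beside 3520 and 4517 of all genes. Same-numbered libraries did not deviate together (r = -0.011 across 11919 genes, which are not independent). The WT libraries differed by little more than read sampling, so this value cannot show whether the numbers mark pairs. With the replicate block 17 rose and 16 fell, beside 3495 and 4461 of all genes. Among the 42 genes directions reversed only for uncalled ones. With ERCC scaling these were Gaa (0.074), Gusb (0.13), Grn (0.52), Lamp1 (0.27) and Tfeb (0.52). Quantile normalization reversed Grn (0.037), and median centring Grn (0.018) and Tfeb (0.034). On leaving out each library in turn they were Hexa (-0.071 to 0.34), Grn (-0.26 to 0.11), Lamp2 (-0.020 to 0.041) and Tfeb (-0.22 to 0.11). Outside the 42, the called falls of Rptor, as given above, and the membrane protein gene Tmem192 reversed with ERCC scaling. The log2 change of Tmem192 was -0.52 with TPM as deposited and 0.068 with ERCC scaling. The causes of these reversals were not tested. Depth limits the low genes Atp6v0d2, Igf2r and Rragb.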

Other observations

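The libraries labelled Tet2 KO differed from each other in more than depth. Over the 42 lysosomal genes the median absolute log2 ratio between them was 0.17, against 0.03 between the WT libraries, and 29 of the 42 were higher in replicate 1. The widest gap was that of Ctsk, at 44.6 and 19.6 TPM in replicates 1 and 2, and Acp5 had 36.2 and 18.1 TPM and Mmp9 164 and 63.6 TPM in the same libraries. Xist, the transcript of the inactive X chromosome, had 86.0 and 28.2 TPM in Tet2 KO-labelled libraries, against 0.34 and 0.34 TPM in WT, and the Y-linked gene Eif2s3y had 29.8 and 90.4 TPM in those labelled Tet2 KO, against 107 and 107 TPM in WT. Of the 42 genes 4 lie on chromosome X; Gla rose, and Lamp2, Tfe3 and Atp6ap1 were not called. Xist thus moved with the labels, and both transcripts were present in each library labelled Tet2 KO. The part of the sex of the cells in the lysosomal values was not tested.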
